A study of Mus musculus with 8 samples.

Results

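A set of 9 integrin subunit genes, taken by name from the 20029 genes in the table, were followed in CD8+ T cells sorted from mouse tumours. They are the alpha subunit genes Itgae, Itga1, Itga2, Itga4, Itgal and Itgav and the beta subunit genes Itgb1, Itgb2 and Itgb7. RNA was measured in 4 libraries from Pglyrp1 knockout (KO) mice, numbered 1 to 4, and 4 libraries from wild-type (WT) mice, numbered 6 to 9. The KO strain was B6.129S4-Pglyrp1tm1.1Lky/J, and C57BL/6J mice served as WT. Mice of both groups bore subcutaneous MC38-OVA tumours, a mouse colon carcinoma line that expresses ovalbumin as a model antigen, and each library held 1000 living cells sorted as CD45+, TCRβ+ and CD8+. The series counts 4 mice per genotype. The labels used here give no age, no separate treatment and no batch. Pglyrp1 encodes a secreted peptidoglycan recognition protein, and the comparison asks how its loss changes the RNA of tumour-infiltrating CD8+ T cells.

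Integrins are cell-surface adhesion receptors made of 1 alpha and 1 beta chain, and the pair decides which ligand is bound. In T cells, the Itgal and Itgb2 products form LFA-1, which binds ICAM proteins on target cells and vessel walls. The Itga4 chain pairs with the Itgb1 chain (VLA-4, a receptor for VCAM-1 and fibronectin) or with the Itgb7 chain (the gut-homing receptor for MAdCAM-1). The Itgae product, CD103, pairs with the Itgb7 chain and binds E-cadherin on epithelial cells. It is found on tissue-resident CD8+ T cells and, in mice, also on many naive CD8+ T cells. The Itga1 and Itga2 chains pair with the Itgb1 chain as collagen receptors, and the Itgav chain, here set beside Itgb1, takes part in receptors for vitronectin, fibronectin and latent TGF-beta.

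Promoter sequence is shown for Itga4 and Itgb7, because their products form 1 receptor and the ratio of their RNA is described below. Each runs from 250 bases before to 50 bases after the RefSeq transcription start (build GRCm38.p6), 5′ to 3′ on the gene's strand. Itga4 lies at chr2:79255176-79255475 on the plus strand and Itgb7 at chr15:102231886-102232185 on the minus strand. Capitals mark 3 motifs searched on both strands. The RUNX motif was TGTGGT. The ETS motif was GGAAG. The SMAD motif was CAGAC. A match on the other strand appears as the reverse complement.
Itga4: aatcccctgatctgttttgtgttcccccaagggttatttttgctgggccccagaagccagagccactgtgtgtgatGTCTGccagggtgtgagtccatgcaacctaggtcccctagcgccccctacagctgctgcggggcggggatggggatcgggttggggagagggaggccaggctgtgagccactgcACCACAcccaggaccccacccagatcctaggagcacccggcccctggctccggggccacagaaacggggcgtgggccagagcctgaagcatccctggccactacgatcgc
Itgb7: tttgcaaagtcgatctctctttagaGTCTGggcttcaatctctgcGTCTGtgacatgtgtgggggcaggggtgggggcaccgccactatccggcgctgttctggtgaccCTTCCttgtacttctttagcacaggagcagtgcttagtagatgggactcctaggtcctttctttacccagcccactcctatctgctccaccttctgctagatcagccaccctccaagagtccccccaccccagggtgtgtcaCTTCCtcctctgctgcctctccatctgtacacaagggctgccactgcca
The Itga4 window held 1 RUNX match, 1 SMAD match and 0 ETS matches, and no bases were shared between matches. The Itgb7 window held 0 RUNX, 2 SMAD and 2 ETS matches. Of 32851 promoter windows of the same length, 16.8% held the RUNX letters, 49.6% the SMAD letters and 71.4% the ETS letters. These are matches of letters and were not tested as binding sites. RefSeq windows were matched for 6 of the 9 genes.

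The 8 libraries were rescaled to a sum of 1000000 each, and the result is called TPM (transcripts per 1000000) after the authors' name for the values. Whether the values are scaled to transcript length could not be checked. Comparisons of level between genes, and the ratios of genes below, assume that they are. The deposited sums were 2223162 to 3342847, with 11935 to 13300 genes above 0, and a deposited value of 1 equalled 0.299 to 0.450 TPM. Read counts were not used here, so the sequencing depth behind each value is unknown. The targeted gene, Pglyrp1, was at 123 to 210 TPM in WT cells and was listed at 0 in KO 1 to 4. The 7 T cell and CD8 markers were present in every library, with a summed level of 5229 to 5884 TPM in KO and 5403 to 7277 TPM in WT. Their log2 fold change was negative for 6 and positive for 1. Cd8b1 was at 1039 to 1329 TPM in KO and 1340 to 1728 TPM in WT (limma adjusted p = 0.502). Every KO library was below every WT library for Cd8b1, beside 2.4% of all genes tested. KO 3 and KO 4 exceeded the other 6 libraries in 17 of 19 myeloid markers, beside 14.2% of all genes tested. The summed level of the myeloid markers was 386, 277, 6782 and 9572 TPM in KO 1 to 4 and 212 to 968 TPM in WT. Emr1, the F4/80 gene, was at 0 in every WT library. The 9 natural killer markers summed to 260, 321, 2503 and 2806 TPM in KO 1 to 4 and 95.5 to 133 TPM in WT. Tyrobp (83.2, 84.9, 1280 and 1291 TPM in KO 1 to 4) and Fcer1g (77.3, 65.9, 996 and 1314 TPM), which myeloid cells also express, made up most of the sum in KO 3 and KO 4. The NK receptor gene Ncr1 was at 0.907 to 7.996 TPM in KO and 0 to 1.18 TPM in WT. The 9 naive and memory T cell markers summed to 2272, 577, 649 and 2031 TPM in WT 6 to 9 and to 1359, 944, 862 and 382 TPM in KO 1 to 4. Smaller amounts were seen of 6 B cell markers (22.4 to 267 TPM in KO, 8.33 to 63.4 in WT) and of 8 stromal and epithelial markers (4.16 to 99.7 and 1.63 to 4.51). The 8 platelet and erythroid markers summed to 4.84 to 1248 TPM in KO and 3.60 to 469 in WT, with Ppbp and Gp9 at 0 in all libraries. The 7 CD4 and regulatory T cell markers summed to 334 to 503 TPM in KO and 150.4 to 396 TPM in WT, mostly from Tnfrsf18 (283 to 467 and 134 to 343 TPM), which activated CD8+ T cells also express. Cd4 itself was at 4.50, 4.84, 66.7 and 15.6 TPM in KO 1 to 4 and 0.393 to 2.25 TPM in WT. Every KO library was above every WT library for Cd4, beside 2.62% of all genes tested. Foxp3 was at 2.52 to 7.56 and 2.03 to 5.51 TPM. In bulk RNA, fewer cells of a type and less RNA per cell cannot be told apart.

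The integrin genes spanned a wide range of levels. Itgb2, the beta chain of LFA-1, was the most abundant of the 9 in both groups, with 454 ± 88.9 TPM in KO and 383 ± 109 TPM in WT cells (SD, n = 4 each). Itgal followed in KO cells (265 ± 12.4 TPM), then Itgb7 (142 ± 61.2), Itgb1 (60.7 ± 34.6), Itga4 (24.1 ± 8.24) and Itgae (15.9 ± 6.20). Itga1 (9.37 ± 2.77), Itgav (5.68 ± 2.07) and Itga2 (0.493 ± 0.129) were lowest. In WT cells the order was Itgb2, Itgb7 (354 ± 203), Itgal (283 ± 115), Itgb1 (83.2 ± 49.9), Itgae (38.6 ± 20.0), Itga1 (13.1 ± 13.1), Itga4 (12.4 ± 4.13), Itgav (3.82 ± 2.76) and Itga2 (1.04 ± 1.08). Neighbours in these orders mostly overlapped. In KO cells the ranges of 4 libraries were apart for Itgb2 and Itgal, Itgal and Itgb7, and Itgav and Itga2, and in WT cells for Itgal and Itgb1 and for Itga4 and Itgav. Itgae and Itga4 stood in opposite order in the groups: Itga4 had the higher mean in KO cells and Itgae in WT cells. Together the 9 genes took 776, 942, 1046 and 1146 TPM in KO 1 to 4 and 916, 1580, 1520 and 673 TPM in WT 6 to 9. The share of Itgb7 in the summed TPM of the 3 beta genes was 11.6%, 30.6%, 23.1% and 19.1% in KO 1 to 4. It was 49.4%, 46.9%, 44.1% and 19.7% in WT 6 to 9, so WT 9 lay within the KO range.

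**Figure D1:**
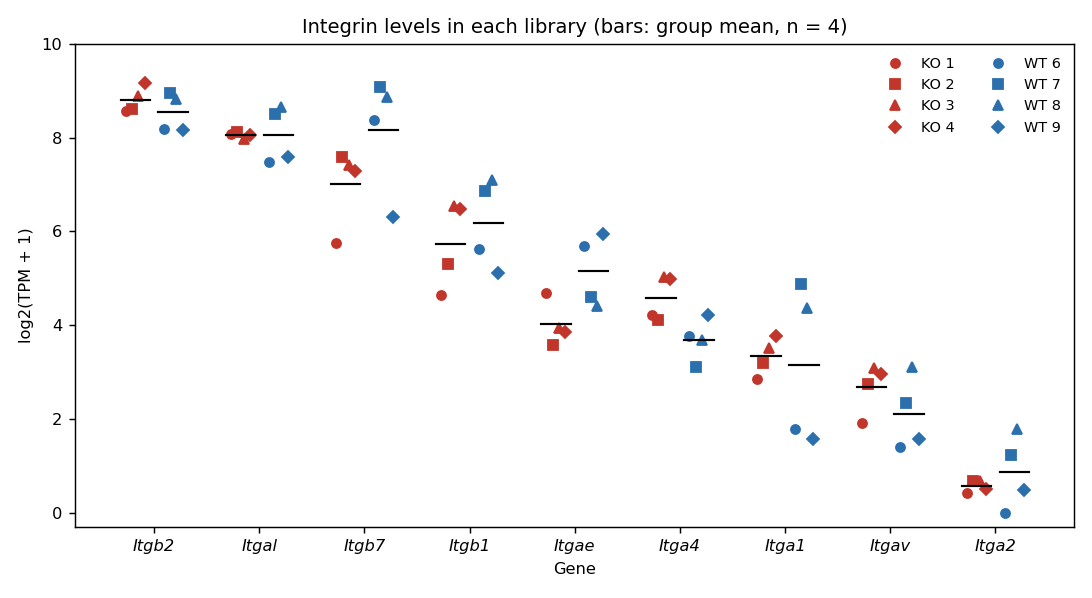
Level of each integrin gene as log2(TPM + 1), with 1 point per library (red KO, blue WT; the shape marks the library) and a bar at the group mean. Itgb2 and Itgal were highest and Itga2 lowest, and in WT cells Itga1 split into a pair of high libraries (WT 7 and WT 8) and a pair of low ones (WT 6 and WT 9).

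KO and WT cells were compared with limma on log2(TPM + 1) over 10732 genes, of which 8 of the 9 integrin genes were part. Itga2 did not pass the filter of at least 1 TPM in at least 4 libraries. No integrin gene passed the adjusted threshold of 0.05 with this limma fit. Over all genes 3 passed, which is 0.028% of those tested. At an unadjusted limma p under 0.05 there were 2 of the 8, Itgae (lower in KO) and Itga4 (higher in KO), beside 974 of all genes (9.08%). Of all genes, 6.01% were so with a higher and 3.07% with a lower level in KO cells. The median log2 fold change of the 8 genes was 0.09, beside 0.04 for all genes tested. Groups overlapped for each of the 9 genes. Every KO library was above every WT library for 2.62% of the genes tested and below for 2.4%.

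Itgae, the CD103 gene (chromosome 11, 73090583 to 73147446, plus strand, 31 exons in its longest coding transcript), was at 24.95, 10.9, 14.4 and 13.5 TPM in KO 1 to 4. It was at 50.4, 23.4, 20.1 and 60.6 TPM in WT 6 to 9. KO 2, KO 3 and KO 4 were below every WT library, and KO 1 lay above WT 7 and WT 8. The highest levels were in WT 6 and WT 9, the libraries highest in naive and memory T cell markers, and KO 1 was next after them in both. The part of those cells in the Itgae difference was not tested. The log2 fold change was -1.14 (SE 0.38, 95% interval -2.01 to -0.28), with a limma adjusted p of 0.472 and a two-sided exact permutation p of 0.0857, where the smallest possible is 0.0286. The fold change was -0.49 without WT 6 and WT 9 and -0.37 when KO 3 and KO 4 were left out as well. Haspin, listed in the table as Gsg2, lies within Itgae on the other strand and shares 0 exon bases with it. Its level was 7.86 to 9.68 TPM in KO and 6.10 to 12.6 TPM in WT cells.

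Itgb7, the beta chain that CD103 and the alpha 4 chain share (chromosome 15, 102215995 to 102231944, minus strand), was at 52.7, 190.2, 169 and 156 TPM in KO 1 to 4. It was at 332, 540.2, 466 and 78.7 TPM in WT 6 to 9. WT 6, WT 7 and WT 8 were above every KO library, and WT 9 was below KO 2, KO 3 and KO 4. The log2 fold change was -1.15 (SE 0.62, 95% interval -2.54 to 0.23; limma adjusted p = 0.602; exact permutation p = 0.200). It was -1.77 without WT 9, -0.73 without KO 1 and -1.97 without WT 6 and WT 9. Itgb7 was thus low in KO 1 and WT 9, which do not share a genotype.

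Itga4 (chromosome 2, 79255426 to 79333123, plus strand) was at 17.7, 16.3, 31.7 and 30.7 TPM in KO 1 to 4 and at 12.6, 7.65, 11.8 and 17.7 TPM in WT 6 to 9. KO 3 and KO 4 were above every WT library, and WT 9 reached the level of KO 1. The log2 fold change was 0.89 (SE 0.30, 95% interval 0.22 to 1.57; limma adjusted p = 0.472; exact permutation p = 0.0857). KO 3 and KO 4 were also the libraries rich in myeloid markers: the fold change was 0.47 without them and 0.39 with the myeloid marker level as a covariate, and the part of myeloid RNA in it was not tested further. Itga4 shares 1124 exon bases with Cerkl on the other strand. Strand use in the counting is not given in the sources used here, so reads in that stretch cannot be assigned with certainty. Cerkl itself was at 0.347 to 3.37 TPM in the 8 libraries.

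Itgb1, the beta chain of VLA-4 and the collagen receptors (chromosome 8, 128685654 to 128733200, plus strand), was at 23.9, 38.4, 92.4 and 87.95 TPM in KO 1 to 4. It was at 48.4, 115, 136 and 33.4 TPM in WT 6 to 9. WT 7 and WT 8 were the highest of the 8 libraries, KO 1 was the lowest, and KO 3 and KO 4 lay between WT 6 and WT 7. The log2 fold change was -0.43 (SE 0.54, 95% interval -1.66 to 0.79; limma adjusted p = 0.839). It was -0.06 without KO 1, -1.20 without KO 3 and KO 4 and -1.24 without WT 6 and WT 9. KO 3 and KO 4 were the libraries rich in myeloid markers, and the fold change was -1.15 with the myeloid marker level as a covariate. It was -2.01 when KO 3, KO 4, WT 6 and WT 9 were left out, with a limma adjusted p of 0.0925, the smallest that any of the 8 genes reached in 22 settings. That fit held only KO 1, KO 2, WT 7 and WT 8. For Itgb1 the libraries left out were the highest of the KO group and the lowest of the WT group. The larger difference thus follows from the choice of libraries, and no result is read from this p.

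Itgal, the alpha chain of LFA-1 (chromosome 7, 127296260 to 127335138, plus strand), was at 268, 279, 249 and 265 TPM in KO 1 to 4 and at 177, 362, 400.4 and 191 TPM in WT 6 to 9. The KO libraries lay close together, and all of them fell between the low pair WT 6 and WT 9 and the high pair WT 7 and WT 8. The log2 fold change was 0.00 (SE 0.26; limma adjusted p = 0.999), and the 95% interval of -0.59 to 0.59 leaves room for differences of that size. Itgal shares a chromosome with Pglyrp1, 108 Mb away. Itgb2 (chromosome 10, 77530252 to 77565708, plus strand) was at 379, 392, 471 and 573 TPM in KO 1 to 4 and at 292, 497, 456 and 288 TPM in WT 6 to 9, with a log2 fold change of 0.27 (95% interval -0.23 to 0.77; limma adjusted p = 0.737). KO 4 alone was above every WT library. Summed myeloid markers were also highest in KO 4, and the log2 fold change of Itgb2 was 0.06 with the myeloid marker level as a covariate and 0.05 without KO 3 and KO 4.

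The collagen receptor gene Itga1 (chromosome 13, 114953096 to 115101964, minus strand) was at 6.24, 8.16, 10.5 and 12.6 TPM in KO 1 to 4 and at 2.44, 28.3, 19.8 and 1.97 TPM in WT 6 to 9. All KO libraries lay between the low WT pair and the high WT pair. The log2 fold change was 0.18 (95% interval -1.44 to 1.81; limma adjusted p = 0.958) and turned to -1.29 without WT 6 and WT 9. Itga1 shares 685 exon bases with an overlapping gene model on the same strand that has no row in the table. Itga2 (chromosome 13, 114833081 to 114932100, minus strand) was at 0.347 to 0.605 TPM in KO and at 0, 1.35, 2.43 and 0.393 TPM in WT 6 to 9, where KO 1, KO 4 and WT 9 held a deposited value of 1. Itgav (chromosome 2, 83724397 to 83806916, plus strand) was at 2.77, 5.74, 7.48 and 6.73 TPM in KO 1 to 4 and at 1.63, 4.05, 7.64 and 1.97 TPM in WT 6 to 9 (log2 fold change 0.57, 95% interval -0.38 to 1.53; limma adjusted p = 0.700). The fold change of Itgav was 0.27 with the myeloid covariate and 0.23 without KO 3 and KO 4. It shares 634 exon bases with Gm13684, a transcript model on the other strand.

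The WT libraries split into the same pairs for all 9 genes. WT 6 and WT 9 were both below WT 7 and WT 8 for 7 genes (Itga1, Itga2, Itgal, Itgav, Itgb1, Itgb2 and Itgb7), as were 39% of all genes tested. They were both above WT 7 and WT 8 for Itgae and Itga4, as were 17.2% of all genes tested. The same libraries differed in the naive and memory markers: of 9, 8 were higher in both WT 6 and WT 9. Ccr7, the chemokine receptor that guides naive T cells to lymph nodes, stood at 769, 188, 134 and 652 TPM across WT 6 to 9. The tissue-residency genes Cd69 (297, 326, 434 and 289.9 TPM) and Cxcr6 (298, 1447, 1067 and 256 TPM) followed the direction of Itga1 in these libraries, not that of Itgae. KO 3 and KO 4 were both above the other 6 libraries for Itga4 alone of the 9 genes, beside 14.2% of all genes tested.

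**Figure D2:**
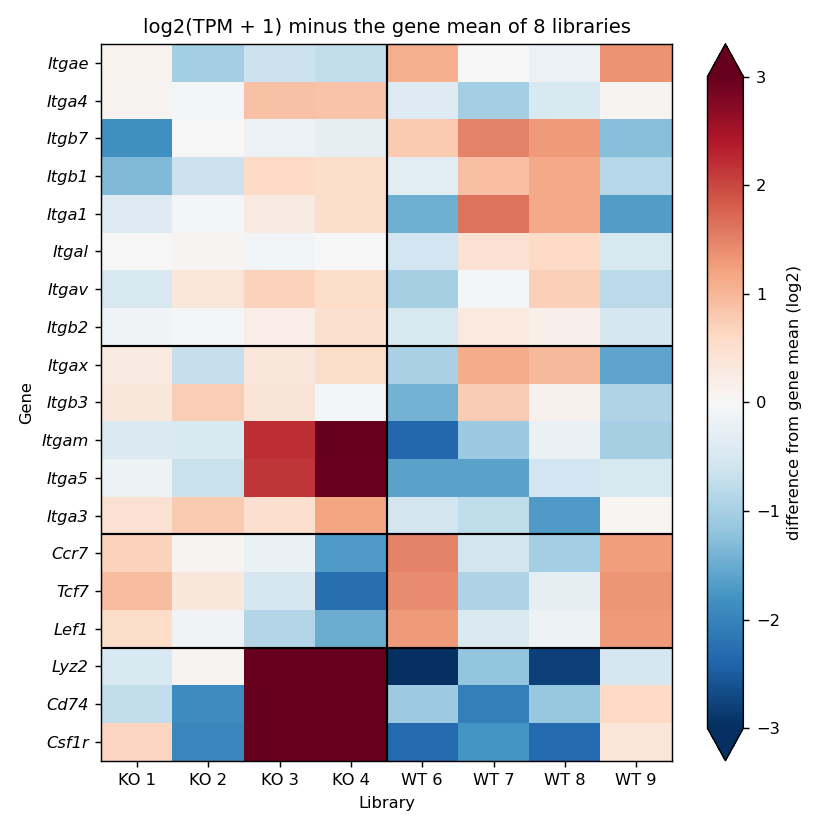
Colour shows log2(TPM + 1) minus the gene's mean over the 8 libraries, for 8 integrin genes of the set, 5 other integrin genes, 3 naive or memory T cell genes and 3 myeloid genes (lines separate these blocks and the groups; the scale is capped at 3 in either direction). Itgae is red in WT 6 and WT 9, as are Ccr7, Tcf7 and Lef1, while Itga1 is blue there; Itgam and Itga5 are red in KO 3 and KO 4, as are Lyz2, Cd74 and Csf1r.

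Across all 8 libraries, each gene was also set against 8214 or 8215 tested genes averaging 5 TPM or more, and the 2 genes most alike by Pearson's r of log2(TPM + 1) are given as a description over 8 libraries. Itgae was most like Xpc (0.98) and Ikbke (0.96). Itga1 was most like Csgalnact2 (0.99) and Cxcr6 (0.99), Itgb7 like Rasgrp1 (0.99) and Deaf1 (0.98), and Itga4 like Timm10b (0.98) and Cd24a (0.98). Itgal was most like Pld3 (0.98) and Psd4 (0.98), Itgav like Ubxn8 (0.98) and Bcl2a1c (0.98), Itgb1 like Aacs (0.97) and Slc25a38 (0.97), Itgb2 like Plekho2 (0.99) and Akr1a1 (0.99), and Itga2 like Fli1 (0.97) and Abhd2 (0.96). They are the highest of 8214 or 8215 values each, over points that share each library's depth and cell makeup.

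**Figure D3:**
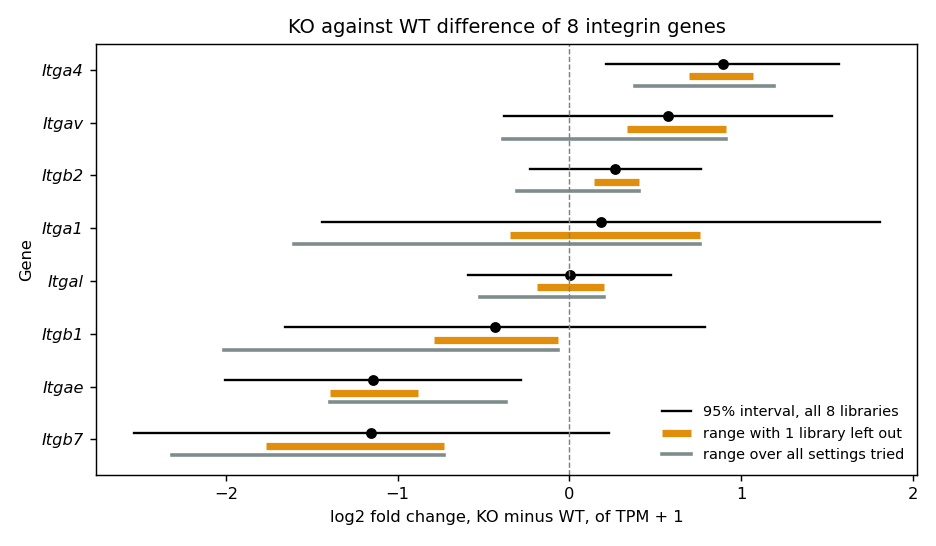
Log2 fold change of TPM + 1, KO minus WT, for the 8 integrin genes tested (black: estimate and 95% interval; orange: range of the estimate with 1 library left out; grey: range over all settings tried). Only the Itgae and Itga4 intervals, unadjusted, lie on 1 side of 0, and the grey ranges of Itga1, Itgal, Itgav and Itgb2 cross 0.

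Because an integrin needs both chains, the RNA of each alpha gene was set against that of a partner as log2((alpha TPM + 1)/(beta TPM + 1)). This is a description with no test, and transcripts per transcript are meant only if the values are scaled to transcript length. Itgae stood at about the same ratio to Itgb7 in the groups, with -2.99 ± 1.32 in KO and -3.001 ± 1.94 in WT (SD, n = 4). There were 2.07, 16.1, 11.1 and 10.9 Itgb7 transcripts per Itgae transcript in KO 1 to 4, and 6.47, 22.2, 22.1 and 1.29 in WT 6 to 9 (each with 1 TPM added). KO 1 and WT 9 had the fewest. For Itga4 and Itgb7 the ratio was -2.42 ± 0.80 in KO and -4.47 ± 1.68 in WT. That is 2.87, 11.03, 5.20 and 4.95 Itgb7 transcripts per Itga4 transcript in KO 1 to 4 and 24.5, 62.6, 36.5 and 4.26 in WT 6 to 9. WT 6, WT 7 and WT 8 were above all KO libraries, and WT 9 was within the KO range. Itga4 to Itgb1 stood at -1.15 ± 0.51 in KO and -2.48 ± 1.34 in WT, again with WT 9 (-0.88) among the KO values. Itga1 to Itgb1 had -2.41 ± 0.56 and -3.02 ± 0.84, and Itga2 to Itgb1 had -5.17 ± 0.89 and -5.30 ± 0.47. Itgav to Itgb1 was the one ratio of 7 whose groups did not overlap, with -3.52 to -2.55 in KO and -4.52 to -3.54 in WT, a gap of little width between KO 4 and WT 9. The share of other gene pairs whose ratios are apart in this way was not computed, so no result is read from it. Itgav was not set against Itgb3. Itgal to Itgb2 had -0.75 ± 0.31 in KO and -0.49 ± 0.23 in WT, so the chains of LFA-1 were within 1.14 to 2.16 Itgb2 transcripts per Itgal transcript in every library.

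**Figure D4:**
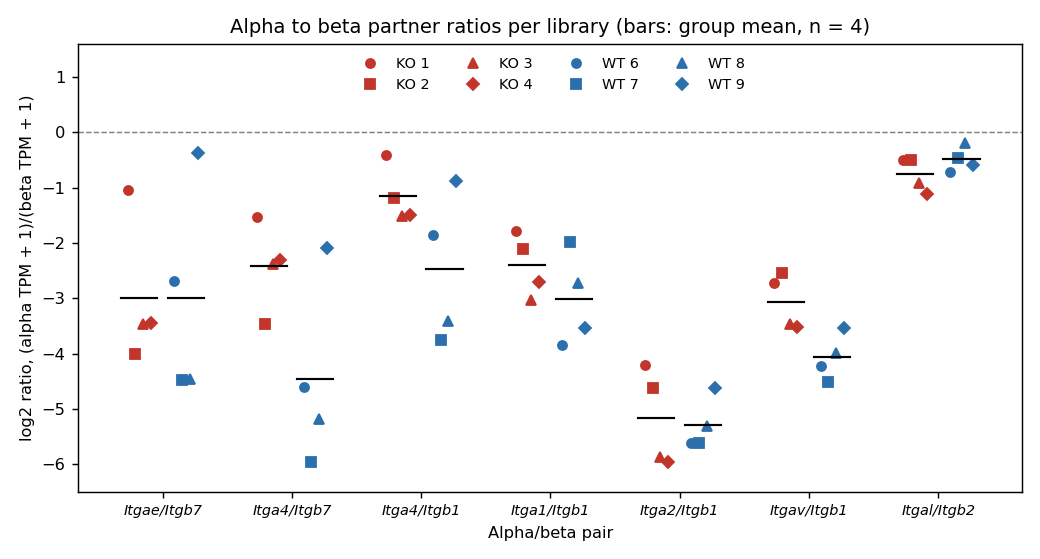
Log2 ratio of alpha to beta RNA for 7 known pairs, with 1 point per library (red KO, blue WT; the shape marks the library) and a bar at the group mean; the dashed line marks equal levels. All ratios are below 0, and for Itga4/Itgb7 WT 6, WT 7 and WT 8 lie below all KO libraries while WT 9 lies among them.

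Of 17 other integrin genes, 16 were in the table and 6 were tested, and 0 passed the limma threshold in either direction. All 6 had a positive log2 fold change, with a median of 1.09 beside 0.04 for all genes tested, and 3 had an unadjusted limma p under 0.05 with a higher level in KO, beside 6.01% of all genes tested. Itga3, the alpha chain of a laminin receptor, was at 3.47, 4.53, 3.59 and 6.31 TPM in KO 1 to 4 and at 1.22, 0.900, 0 and 2.36 TPM in WT 6 to 9. Its groups did not overlap, as for the 2.62% of all genes with every KO library above every WT library (log2 fold change 1.47, SE 0.39, limma adjusted p = 0.395). Itga5, the fibronectin receptor alpha chain, was at 1.73, 0.907, 12.6 and 22.7 TPM in KO 1 to 4 and at 0 to 1.18 TPM in WT (limma adjusted p = 0.497). Itgam, the CD11b gene, was at 2.77, 2.72, 22.7 and 50.5 TPM in KO 1 to 4 and at 0 to 3.47 TPM in WT (limma adjusted p = 0.501). Itga5 and Itgam were thus high in the libraries with the highest summed myeloid markers; the part of myeloid RNA was not tested. Itgax, the CD11c gene, was at 28.1, 13.9, 29.6 and 34.5 TPM in KO 1 to 4 and at 11.4, 50.8, 46.2 and 7.08 TPM in WT 6 to 9, the WT order of Itga1. Itgb3 was at 21.8, 28.7, 22.4 and 16.4 TPM in KO 1 to 4 and at 5.69, 29.2, 18.8 and 8.65 TPM in WT 6 to 9. Itgb4 was at 0 in all libraries, and 8 of the 16 genes stayed below 1 TPM throughout.

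Among integrin ligands, 6 of 17 genes were tested and 0 passed (median log2 fold change 0.28). An unadjusted limma p under 0.05 was found for 1, higher in KO, beside 6.01% of all genes tested. Fn1 (fibronectin) was at 1.04, 1.21, 5.09 and 69.4 TPM in KO 1 to 4 and at 0, 0, 0 and 1.18 TPM in WT 6 to 9. Spp1 (osteopontin) was at 13.2, 21.5, 131 and 694 TPM in KO 1 to 4 and at 0.813 to 35.4 TPM in WT. Both were highest in KO 4, the library with the highest summed myeloid and stromal markers, a link that was not tested. Vcam1 and Madcam1, which like Fn1 encode ligands of the alpha 4 integrins, were at 0 in 7 of 8 libraries each.

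Genes that act on integrin activation from inside the cell, activators and inhibitors counted together, had 19 tested of 22, with 0 past the threshold. There were 6 positive and 13 negative, with a median log2 fold change of -0.11, which gives no direction of activation. An unadjusted limma p under 0.05 was found for 3, all lower in KO, beside 3.07% of all genes tested. Apbb1ip, which encodes the RAP1 effector RIAM that brings talin to the membrane, was at 21.1, 16.6, 17.1 and 18.5 TPM in KO 1 to 4. It was at 22.8, 24.7, 27.8 and 24.8 TPM in WT 6 to 9, with groups apart (log2 fold change -0.43, SE 0.15, limma adjusted p = 0.488). Rassf5, another RAP1 effector (RAPL) that acts on LFA-1, was at 147 to 170.1 TPM in KO and at 180.4 to 198 TPM in WT, also with groups apart (-0.27, SE 0.11, limma adjusted p = 0.529). These 2 of the 21 genes of the list in the table had every KO library below every WT library, beside 2.4% of all genes tested. Both were measured at similar levels in WT 6, WT 7, WT 8 and WT 9, unlike Itgal and Itgb2. Of the adhesion complex, 12 of 18 genes were tested and 0 passed (median 0.01). An unadjusted limma p under 0.05 was found for 1, higher in KO, beside 6.01% of all genes tested. Vcl (vinculin) was at 3.02 to 7.996 TPM in KO and 0.406 to 3.15 TPM in WT (limma adjusted p = 0.525). Lims1, an adaptor of integrin-linked kinase, was at 31.4 to 59.8 and 28.7 to 38.7 TPM (limma adjusted p = 0.597).

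Membrane partners of integrins had 10 of 10 tested and 0 past the threshold (median 0.21). An unadjusted limma p under 0.05 was found for 4 of them, all higher in KO, beside 6.01% of all genes tested. Cd63, a tetraspanin, was at 2.08, 2.42, 65.5 and 127 TPM in KO 1 to 4 and at 0 to 2.08 TPM in WT, and Slc3a2 (CD98) at 175 to 242 and 97.1 to 181 TPM. Of 13 other adhesion receptors, 12 were tested and 0 passed (median -0.02). At an unadjusted limma p under 0.05 there were 2, with 1 higher and 1 lower in KO, beside 6.01% and 3.07% of all genes tested. Alcam was at 2.12 to 6.73 TPM in KO and 0 to 2.70 TPM in WT, and Cd96 at 79.0 to 97.6 and 97.6 to 151 TPM. Of 13 genes linked to Itgae control (TGF-beta receptors, SMAD and SKI factors, RUNX3, T-box factors and Prdm1), 12 were tested and 0 passed, with 4 positive, 8 negative and a median of -0.12. The list counts receptors, SMAD factors, their inhibitors and other factors together, so its median gives no direction of TGF-beta signalling. At an unadjusted limma p under 0.05 there were 1 higher and 3 lower in KO, beside 6.01% and 3.07% of all genes tested. The higher gene was Prdm1 (log2 fold change 0.98, limma adjusted p = 0.527). The lower genes were Ski, Smad7 and Smad3 (Smad3 -0.62, limma adjusted p = 0.527). Ski, a repressor of SMAD signals, was at 9.01, 6.65, 8.08 and 10.5 TPM in KO 1 to 4 and at 15.04, 15.7, 16.3 and 12.98 TPM in WT 6 to 9 (log2 fold change -0.76, SE 0.19, limma adjusted p = 0.395). Smad7, an inhibitor induced by TGF-beta, was at 3.79 to 6.58 TPM in KO and 7.29 to 10.2 TPM in WT (-0.62, SE 0.22, limma adjusted p = 0.497). Ski and Smad7 were the 2 of the 12 genes with every KO library below every WT library, beside 2.4% of all genes tested. Unlike Itgae, Ski was not higher in WT 6 and WT 9 than in WT 7 and WT 8. Smad7 was higher there, as Itgae was, at 10.2, 7.65, 7.29 and 9.05 TPM in WT 6 to 9.

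**Figure D5:**
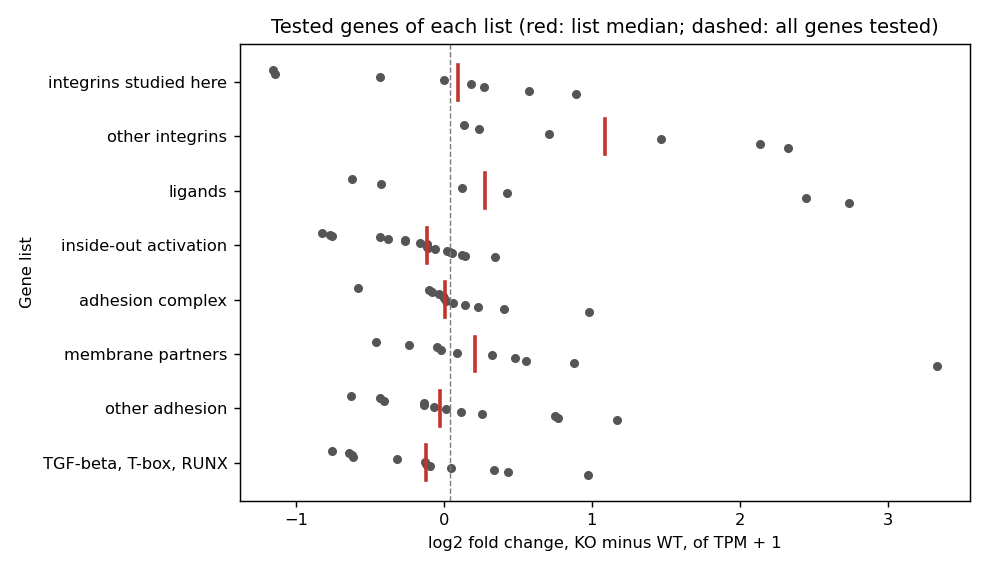
Log2 fold change of TPM + 1, KO minus WT, with 1 point per tested gene in each list; the red bar marks the list median and the dashed line the median of all genes tested (0.04). The other integrins lie to the right, led by Itgam and Itga5. The inside-out activation list, activators and inhibitors together, has a median of -0.11.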

How the data were processed

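Gene expression was measured by full-length RNA-seq (modified SMART-Seq2 and Nextera XT, 38-base paired reads, per the labels' protocols) in 8 libraries. The deposited values are a score that the authors named a TPM-normalized count, in whole numbers. The submitters' processing notes name RSEM 1.3.3 and mm10. The sources used here do not give the aligner, annotation or rounding. The planned fit assumed TPM and was run on rescaled values.

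Libraries were scaled to 1000000 each and 1 was added before log2, so fold changes of low genes are understated. Genes reaching 1 TPM in 4 or more libraries (or as many as the smaller group holds, when libraries were left out) were tested with limma 3.58.1 in R 4.3.3, with a mean trend, genotype alone in the model and Benjamini-Hochberg adjustment. Exact permutation tests ran over 70 assignments of libraries. Python 3.11.15, pandas 2.3.3, numpy 2.4.6 and scipy 1.17.1 were used. Of 192 list entries, members included, 189 were matched by symbol, Adgre1 as Emr1; the other 3 were not analysed here. On simulated data for KO against WT with 200 changed genes among 10732, 35.6% of changes of 1, 82.5% of 2 and 94.4% of 3 on the log2 scale were called. False calls over 5 runs were 22, 47 and 60. Changed genes were drawn from those with a mean log2(TPM + 1) above 2, and each value was drawn independently. The rates therefore do not cover lower genes or patterns shared by pairs of libraries. Members and lists were chosen with earlier results of these data known. Named genes are the 9 members, the 2 of smallest p per list, other integrins averaging 5 TPM or more and the 2 most alike per member; genes outside this rule were named after their values were seen. Coordinates are 1-based GENCODE M21 positions on GRCm38 (mm10). Alternatives varied the pseudocount, filter, scaling, limma options, a myeloid covariate and the libraries kept.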

Additional observations from a re-analysis of the deposited data

Results flagged for a closer look

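In groups of 4 libraries, a library was marked when its gap to the nearest of the others exceeded Dixon's 95% critical share of that group's whole range. Among 52 groups (26 named genes in KO and in WT cells), 2 were marked, where chance marks about 1 in 20, or 2.6. Both concern Fn1, the fibronectin gene. It was at 69.4 TPM in KO 4, beside 1.04 to 5.09 TPM in the other KO libraries, and at 1.18 TPM in WT 9, beside 0 in the other WT libraries. The WT mark carries no weight, because any value above 0 is marked when the others are all at 0. The rate of 1 in 20 does not hold for such groups. No integrin gene was marked.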

How the results depend on the processing

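No paired analysis was possible because the replicate numbers do not recur: 1 to 4 are KO and 6 to 9 are WT. None of the 9 integrin genes studied passed the limma threshold in those of 22 other settings that tested it. Itgae, Itga4, Itgb1 and Itgb7 kept their direction in all 22. With 1 library left out, the log2 fold change was -1.40 to -0.88 for Itgae, 0.70 to 1.07 for Itga4, -0.79 to -0.06 for Itgb1, -1.77 to -0.73 for Itgb7, -0.34 to 0.76 for Itga1, -0.19 to 0.20 for Itgal, 0.34 to 0.91 for Itgav and 0.15 to 0.41 for Itgb2. The direction of Itga1 turned with a pseudocount of 5 (-0.022), the myeloid covariate (-0.032), without WT 6 (-0.27), without WT 9 (-0.34), without KO 3 and KO 4 (-0.13), without WT 6 and WT 9 (-1.29) and without both pairs (-1.60). That of Itgal, near 0, turned with median-ratio scaling (-0.044), quantile normalization (-0.11), removal of ribosomal protein and the 20 most abundant genes (-0.13), without KO 1 (-0.0032), KO 2 (-0.023), WT 6 (-0.19) or WT 9 (-0.15), without WT 6 and WT 9 (-0.52) and without both pairs (-0.48). Without WT 6 and WT 9, and without both pairs, Itgav (-0.047 and -0.39) and Itgb2 (-0.089 and -0.30) turned too. The cause was not tested. Of all genes, 3 passed with all libraries, 2 to 9 with 1 left out (5 without KO 1, 9 without KO 2), 5 without KO 3 and KO 4, 5 without WT 6 and WT 9, and 10 without both pairs. The median log2 fold change of all genes moved by -0.11 with quantile normalization, by -0.12 with the abundant genes removed and by -0.15 without both pairs. Itgav was not tested at a filter of 5 TPM, and Itga2 was tested only with no filter or with these pairs left out. Itga2 had deposited values of 1 in 3 libraries. Alternatives are not given for the other integrins.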
